A study of Mus musculus with 11 samples.

Results

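A set of 8 genes that antibody-secreting cells switch on or depend on was followed in whole lacrimal glands of male NOD mice. They are *Jchain*, *Mzb1*, *Irf4*, *Prdm1*, *Xbp1*, *Sdc1*, *Pou2af1* and *Slamf7*. They were listed by name from general knowledge of this cell type, with earlier results of these data known. All 8 were found among the 19058 genes of the count table. *Xbp1* and *Sdc1* are also used by acinar and other epithelial cells, so these 2 genes are described apart from the other 6. *Prdm1* is used as well by T cells, myeloid cells and some epithelial cells.

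Plasma cells arise from B cells when the factors *Irf4* and *Prdm1* shut down the B cell program and *Xbp1* enlarges the endoplasmic reticulum for antibody secretion. In the lacrimal gland, plasma cells that lie between the acini make polymeric IgA, which is held together by the joining chain and carried into tears by the receptor *Pigr*. Acinar cells are themselves heavy secretors and use much of the same endoplasmic reticulum machinery.

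RNA sequencing was done on glands of 3 WT, 5 *Tlr7* KO and 3 *Ifnar1* KO mice, all male and all on the NOD strain, which spontaneously develops lacrimal gland inflammation in males. The *Tlr7* KO strain carries a 2-base deletion made by CRISPR/Cas9 in NOD embryos, and the *Ifnar1* KO strain lacks a subunit of the type I interferon receptor. WT and *Tlr7* KO mice were 20 to 22 weeks old, and the age of the *Ifnar1* KO mice was not given in the sources used here. According to the methods of the study, a further *Ifnar1* KO mouse was dropped because it clustered with WT and was inflamed like WT, so the *Ifnar1* KO group was chosen in part by its inflammation. The same WT mice served for both knockouts, so the 2 comparisons with WT are not independent. In bulk tissue, fewer cells of a type and less RNA per cell cannot be told apart.

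Between 20512315 and 28814250 counts per mouse were assigned to genes. Levels are given as CPM, a count divided by the library total after correction with edgeR's TMM factors. *Tlr7* itself averaged 2.39 CPM in WT and 0.776 CPM in *Tlr7* KO mice, while *Ifnar1* averaged 13.5 CPM in WT mice against 9.02 CPM in the knockout of that gene, so neither transcript was absent in its knockout. Each was also lower than in WT in the other knockout (*Tlr7* 0.563 CPM in *Ifnar1* KO, *Ifnar1* 9.54 CPM in *Tlr7* KO), so these levels do not identify the genotypes. The lactoperoxidase gene *Lpo*, the most abundant of the acinar and gland epithelial genes listed, had means of 1590 CPM in WT, 4520 CPM in *Tlr7* KO and 4760 CPM in *Ifnar1* KO. WT 2 stood apart from the other WT mice. Its 16 mature B cell genes summed to 180 CPM against 485 and 437 CPM in WT 1 and WT 3, its 14 T and NK cell genes to 18.7 CPM against 56.9 and 47.7 CPM, and its TMM factor was 0.864 against 1.44 and 1.48. *Tlr7* KO 5 had a TMM factor of 0.692, against 0.914 to 0.974 in the other *Tlr7* KO mice. Its 10 most abundant genes held 65.9% of its counts, against 57.3% to 59.1% in those mice. Further libraries, 3 in number, differed in *Bpifa2*, a secretory gene that is abundant in salivary glands. Its level was 1890 CPM for WT 3, 1660 CPM for *Ifnar1* KO 2 and 135 CPM for *Ifnar1* KO 1, and no more than 1.78 CPM in the other 8 mice. Its part in the results was not tested. The effect of leaving out a mouse is given where it changes a call of the 8 members. For most of the gene lists below, only WT mice were left out, and no mouse was left out between the knockouts. When *Ifnar1* KO 1 or *Ifnar1* KO 3 was left out, 0 of 13937 genes passed between *Ifnar1* KO and WT in edgeR. No list gene called in that comparison thus kept its call there.

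The sequences upstream of the start sites were compared for shared motifs. RefSeq promoters on GRCm38.p6 were at hand for 7 of the 8 genes, and the 250 bases before the start site were searched on both strands for 5 motifs tied to B cell or secretory factors. These were the octamer ATGCAAAT, which the partner proteins of *Pou2af1* bind, the interferon regulatory element, the Ets-IRF composite element, the core TGACGTG of the unfolded protein response element, and the endoplasmic reticulum stress element. Only 1 of the 7 promoters held a match, that of *Pou2af1*, with TGACGTG on the gene's own strand from base -61 to base -55. Of 32851 promoters of this length, 1.65% held this core, 1.6% the octamer, 2.98% the interferon regulatory element, 2.3% the Ets-IRF element and 0.113% the stress element. TGACGTG overlaps the cAMP response element in its leading letters, and a match is a description of the letters only. Shown are the promoters of the most abundant gene that fell in *Tlr7* KO mice (*Jchain*, chr5:88527898-88528147, minus strand), of the one with the match (*Pou2af1*, chr9:51213440-51213689, plus strand) and of the member that rose (*Sdc1*, chr12:8771146-8771395, plus strand), each 5′ to 3′ along the gene with the match in capitals.
Jchain: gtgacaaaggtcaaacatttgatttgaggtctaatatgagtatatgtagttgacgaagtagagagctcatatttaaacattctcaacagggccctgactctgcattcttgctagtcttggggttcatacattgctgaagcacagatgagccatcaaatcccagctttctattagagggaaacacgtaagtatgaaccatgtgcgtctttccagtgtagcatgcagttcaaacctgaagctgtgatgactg
Pou2af1: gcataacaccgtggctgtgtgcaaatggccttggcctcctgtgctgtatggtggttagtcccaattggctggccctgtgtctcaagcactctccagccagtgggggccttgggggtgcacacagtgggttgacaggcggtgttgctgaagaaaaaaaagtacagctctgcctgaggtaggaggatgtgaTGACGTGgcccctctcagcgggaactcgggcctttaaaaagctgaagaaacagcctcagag
Sdc1: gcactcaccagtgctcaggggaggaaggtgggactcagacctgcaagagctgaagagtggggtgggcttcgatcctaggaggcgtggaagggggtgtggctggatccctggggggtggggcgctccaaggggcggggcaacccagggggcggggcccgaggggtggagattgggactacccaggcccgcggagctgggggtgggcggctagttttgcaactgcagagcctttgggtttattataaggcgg

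Per kilobase of exon, a rough scale for comparing genes, *Jchain* was the highest of the 8 genes in WT glands at 223 ± 24.9 CPM per kb (SD, n = 3), followed by *Xbp1* at 156 ± 31.1. *Mzb1* came next at 13.4 ± 3.16, then *Pou2af1* at 4.56 ± 1.82 and *Sdc1* at 3.98 ± 0.365, whose ranges overlapped. *Irf4* (1.23 ± 0.713), *Slamf7* (0.469 ± 0.169) and *Prdm1* (0.36 ± 0.0892) formed the low end, each overlapping its neighbour. The order did not follow the roles of the genes, since the factor *Xbp1* lay far above the chaperone *Mzb1*.

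This order changed in the knockouts. In *Tlr7* KO mice *Xbp1* led at 180 ± 10.9 CPM per kb (SD, n = 5) and *Jchain* followed at 88.8 ± 16.4, with no overlap between the 2 genes. *Jchain* exceeded *Xbp1* in 3 of 3 WT mice, in 0 of 5 *Tlr7* KO mice and in 1 of 3 *Ifnar1* KO mice. *Sdc1*, below *Mzb1* and *Pou2af1* in the WT order, was the third gene in both knockouts, at 6.15 ± 0.604 in *Tlr7* KO and 7.14 ± 0.891 in *Ifnar1* KO. *Mzb1* was below it in every *Tlr7* KO mouse, and in 2 of the 3 *Ifnar1* KO mice. *Slamf7* had the lowest mean in both knockouts, while *Prdm1* had the lowest in WT. In *Tlr7* KO the ranges of these 2 genes overlapped, and *Prdm1* was above *Slamf7* in 4 of 5 mice.

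**Figure D1:**
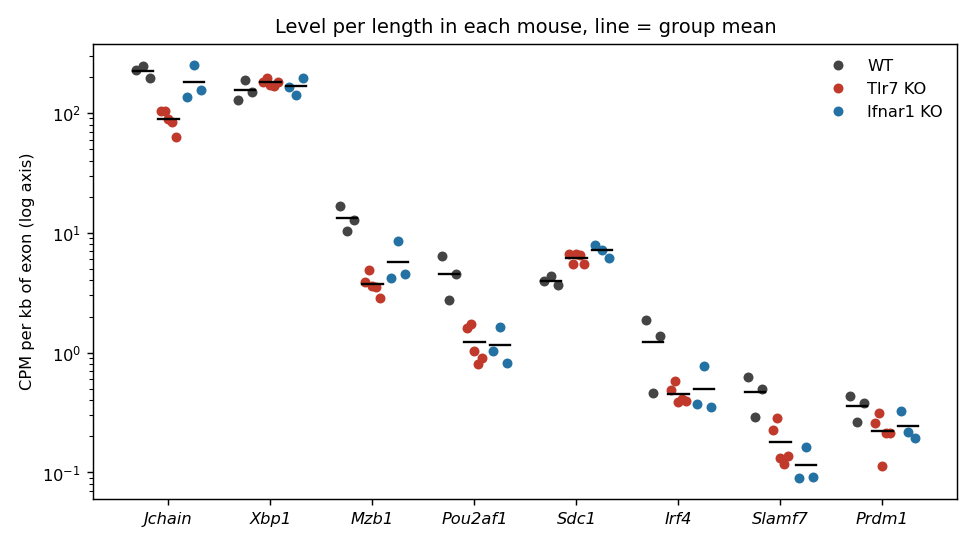
Level of each gene in each mouse in CPM per kilobase of exon (log axis), ordered by the WT mean; points are mice, short lines are group means and colours are the 3 genotypes. *Jchain* lies above *Xbp1* in all 3 WT mice and below it in all 5 *Tlr7* KO mice, and the range from *Jchain* (223 in WT) to *Prdm1* (0.36 in WT) spans nearly the whole axis.

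*Jchain* encodes the small chain that joins IgA or IgM units into polymers, and it is the member closest to antibody export. Its level was 317, 342 and 274 CPM in WT 1 to 3. It was 143, 145, 124, 118 and 88.5 CPM in *Tlr7* KO 1 to 5, and 190, 352 and 215 CPM in *Ifnar1* KO 1 to 3. All *Tlr7* KO mice lay below all mice of the other groups, whereas *Ifnar1* KO 2 was the highest of the 11 mice. *Jchain* fell by 1.33 on the log2 scale in *Tlr7* KO (SE 0.155, 2.52-fold, adjusted p = 0.000952, edgeR's quasi-likelihood test). In *Ifnar1* KO the difference from WT was -0.32 (95% interval -0.91 to 0.26, adjusted p = 0.38). Without *Ifnar1* KO 2, which held 1660 CPM of *Bpifa2*, it was -0.63 (adjusted p = 0.089), without *Ifnar1* KO 1 it was -0.13 (adjusted p = 0.756, edgeR), and under scaling by library size alone it was -0.61 (adjusted p = 0.188).

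*Mzb1*, a chaperone of the endoplasmic reticulum that helps to assemble and secrete antibody, was at 15.1, 9.41 and 11.7 CPM in WT 1 to 3. It was at 3.48, 4.42, 3.23, 3.22 and 2.57 CPM in *Tlr7* KO 1 to 5, and at 3.79, 7.7 and 4.1 CPM in *Ifnar1* KO 1 to 3. Both knockouts lay wholly below WT, and as for *Jchain* the highest mouse outside WT was *Ifnar1* KO 2. The log2 fold change was -1.83 in *Tlr7* KO (SE 0.19, 3.56-fold lower, adjusted p = 0.000665) and -1.24 in *Ifnar1* KO (SE 0.307, 2.37-fold lower, adjusted p = 0.0343, both by edgeR's quasi-likelihood test).

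*Pou2af1* encodes OCA-B, the coactivator that B lineage cells use with octamer-binding proteins at antibody genes. Its level was 16.2, 6.98 and 11.6 CPM in WT, 4.06, 4.46, 2.66, 2.07 and 2.31 CPM in *Tlr7* KO, and 2.63, 4.19 and 2.09 CPM in *Ifnar1* KO mice, in the order of their numbers. WT 2 was the lowest WT mouse but still above every knockout mouse. *Pou2af1* was lower by a similar size in *Tlr7* KO (log2 fold change -1.90, SE 0.312, adjusted p = 0.00307) and in *Ifnar1* KO (4-fold lower, SE 0.37, 95% interval -2.86 to -1.13, adjusted p = 0.023, edgeR). Between the knockouts it differed by 0.07 (95% interval -0.60 to 0.75).

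*Irf4*, the factor that drives both B cell activation and plasma cell fate, gave 8.85, 2.17 and 6.59 CPM in WT 1 to 3. The *Tlr7* KO mice gave 2.34, 2.77, 1.86, 1.94 and 1.89 CPM, and the *Ifnar1* KO mice 1.78, 3.7 and 1.67 CPM. WT 2 lay within the range of both knockouts, so the groups overlapped through this mouse. *Irf4* fell in *Tlr7* KO (-1.45, SE 0.366, adjusted p = 0.0157, edgeR) and had a log2 fold change of -1.34 in *Ifnar1* KO that did not pass (95% interval -2.58 to -0.09, adjusted p = 0.112). Without WT 2 the values were -1.84 (adjusted p = 0.0002) and -1.73 (adjusted p = 0.014), and without WT 1 or WT 3 the *Tlr7* KO call was lost (-1.03, adjusted p = 0.0757, and -1.37, adjusted p = 0.056).

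*Slamf7*, a surface receptor of plasma cells that NK cells and myeloid cells also carry, was at 2.85, 1.32 and 2.27 CPM in WT. It was at 1.03, 1.3, 0.607, 0.537 and 0.629 CPM in *Tlr7* KO and at 0.41, 0.748 and 0.418 CPM in *Ifnar1* KO mice, from 10 to 30 counts per knockout mouse. WT 2 and *Tlr7* KO 2 differed by little, and the *Ifnar1* KO mice were clear of WT. The log2 fold change was -1.39 in *Tlr7* KO (SE 0.351, adjusted p = 0.0159) and -2.06 in *Ifnar1* KO (SE 0.41, adjusted p = 0.0236, edgeR). Without WT 1 or WT 3 the call in *Tlr7* KO was lost as well (-1.12, adjusted p = 0.0741, and -1.35, adjusted p = 0.0544).

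*Prdm1* encodes Blimp-1, the repressor that ends the B cell program. It was the least abundant member in WT glands, at 2.34, 1.41 and 2.05 CPM, with 33 to 75 counts per mouse. *Tlr7* KO mice had 1.38, 1.69, 0.607, 1.16 and 1.15 CPM and *Ifnar1* KO mice 1.74, 1.16 and 1.04 CPM, so WT 2 overlapped with both knockouts. The log2 fold changes of -0.70 in *Tlr7* KO (95% interval -1.40 to 0.00, adjusted p = 0.112) and -0.58 in *Ifnar1* KO (95% interval -1.32 to 0.15, adjusted p = 0.218) did not pass in edgeR. Without WT 2 the *Tlr7* KO value was -0.88 (adjusted p = 0.0446), and under scaling by library size alone it was -1.25 (adjusted p = 0.0381, edgeR).

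**Figure D2:**
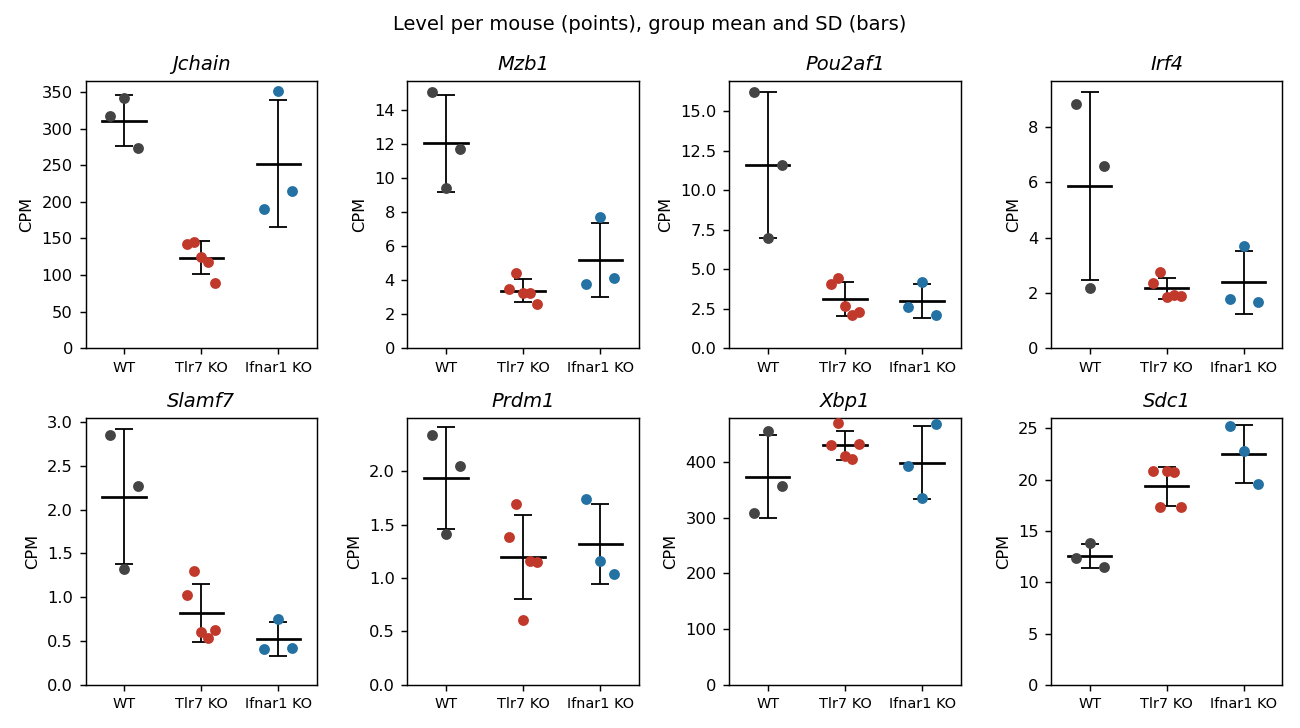
Level of the 8 genes in CPM (linear axes from 0); each point is a mouse, the wide bar is the group mean and the whiskers are 1 SD. The *Tlr7* KO mice lie below all WT mice for *Jchain*, *Mzb1*, *Pou2af1* and *Slamf7*, for *Jchain* *Ifnar1* KO 2 (352 CPM) reaches the WT range while the other *Ifnar1* KO mice (190 and 215 CPM) lie below it, and *Sdc1* is higher in both knockouts.

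The 2 genes shared with the secretory epithelium behaved otherwise. *Xbp1*, the factor that expands the endoplasmic reticulum, was at 309, 455 and 357 CPM in WT, at 430, 471, 411, 405 and 432 CPM in *Tlr7* KO and at 393, 336 and 468 CPM in *Ifnar1* KO mice. WT 2 and *Ifnar1* KO 3 were nearly as high as the highest *Tlr7* KO mouse, and the 3 groups overlapped. The log2 fold changes were 0.20 in *Tlr7* KO (95% interval -0.08 to 0.49, adjusted p = 0.241) and 0.08 in *Ifnar1* KO (-0.42 to 0.58, adjusted p = 0.815, edgeR), and they turned to -0.26 and -0.18 under scaling by library size alone. Without WT 2 the *Tlr7* KO value was 0.36 (adjusted p = 0.00989). *Xbp1* becomes active when its messenger is spliced in the cytoplasm, and counts summed to the gene do not separate the spliced from the unspliced form.

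*Sdc1* encodes syndecan-1 (CD138), a surface proteoglycan used to sort plasma cells and borne by many epithelial cells. It was at 12.4, 13.8 and 11.5 CPM in WT, at 20.8, 17.3, 20.8, 20.7 and 17.3 CPM in *Tlr7* KO and at 25.2, 22.8 and 19.6 CPM in *Ifnar1* KO mice. Every knockout mouse lay above every WT mouse, the opposite of *Jchain* and *Mzb1* in *Tlr7* KO glands. *Sdc1* rose by 0.63 on the log2 scale in *Tlr7* KO (SE 0.0977, 1.55-fold, adjusted p = 0.00255) and by 0.82 in *Ifnar1* KO (SE 0.123, 1.77-fold, adjusted p = 0.0207, edgeR), but under scaling by library size alone the values were 0.15 (adjusted p = 0.583) and 0.55 (adjusted p = 0.213). With that scaling the all-gene median shifted from -0.04 to -0.54 in *Tlr7* KO and from -0.02 to -0.31 in *Ifnar1* KO, and *Sdc1* was above this median under both scalings.

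In total, 6 of the 8 genes differed between *Tlr7* KO and WT, 5 lower and 1 higher, while 32.8% of the 13937 genes tested passed, 17.4% lower and 15.3% higher. Under scaling by library size alone 6 were lower, with *Prdm1* added, and 0 higher, with *Sdc1* lost. With that scaling 31.5% of all genes passed in either direction, and the all-gene median was -0.54. All 8 genes passed the filter of 30 summed WT counts. For the 6 genes other than *Xbp1* and *Sdc1* the median difference was -1.42 on the log2 scale, beside -0.04 over all genes tested. *Jchain*, *Mzb1*, *Pou2af1*, *Slamf7* and *Sdc1* had groups that did not overlap, beside 30.6% of all genes (14.5% lower and 16.1% higher). Without WT 2 all 8 genes passed, as did 48.9% of all genes, with log2 fold changes of -1.27 for *Jchain*, -1.99 for *Mzb1*, -2.17 for *Pou2af1*, -1.64 for *Slamf7* and 0.69 for *Sdc1*. Without WT 1 or WT 3 the genes that passed were *Jchain*, *Mzb1*, *Pou2af1* and *Sdc1*, while 20.9% and 20.2% of all genes passed.

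In *Ifnar1* KO, 3 genes were lower (*Mzb1*, *Pou2af1* and *Slamf7*) and 1 higher (*Sdc1*), while 19.2% of all genes passed, 12.4% lower and 6.76% higher. The same 4 genes had groups that did not overlap, beside 41.6% of all genes (21.2% lower and 20.4% higher). The median over the 6 genes was -1.29, beside -0.02 over all genes. These calls rested on few mice. When either WT 1 or WT 3, or either the first or the last *Ifnar1* KO mouse, was left out, 0 of the 8 genes passed in edgeR (4 at an unadjusted p under 0.05 in each case), and no more than 0.806% of all genes passed. Without WT 2, 5 genes passed, with *Irf4* added, as did 34.4% of all genes. DESeq2 with all mice called the same 4 genes as edgeR, and 24.1% of all genes.

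**Figure D3:**
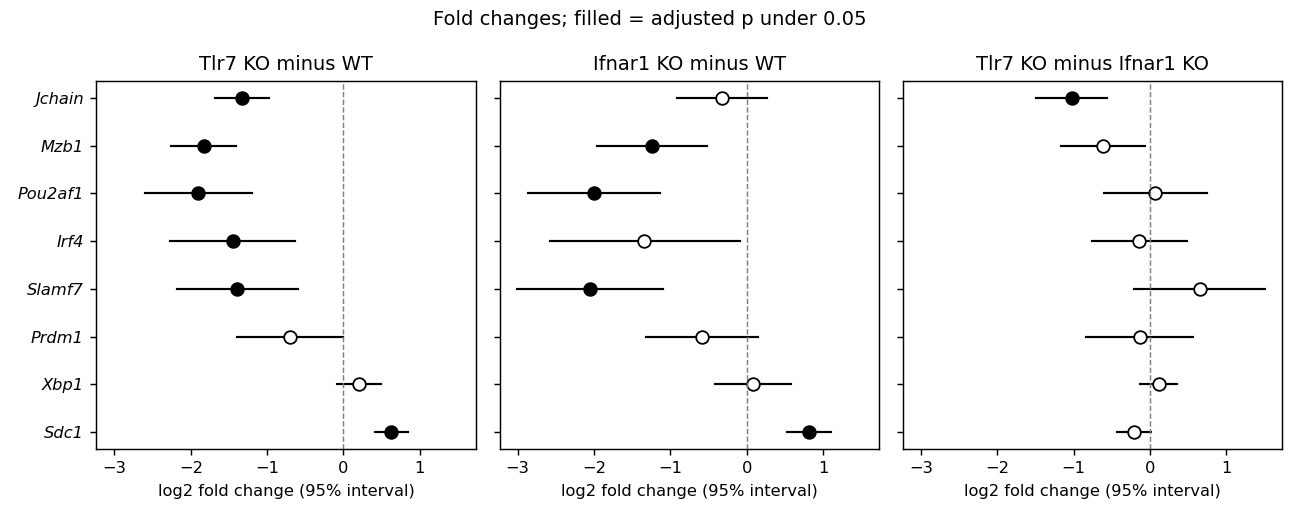
Log2 fold change of each gene in the 3 comparisons with its 95% interval from edgeR's quasi-likelihood fit; filled points passed an adjusted p of 0.05 over all genes and open points did not. *Jchain* is at -1.33 in *Tlr7* KO and at -0.32 in *Ifnar1* KO against WT, and it is the only filled point between the knockouts (-1.02).

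Set directly against each other, the 2 knockouts differed in *Jchain* alone among the 8 genes, while 1.79% of all genes tested passed, 0.868% lower and 0.926% higher in *Tlr7* KO. *Jchain* was 2.03-fold lower in *Tlr7* KO than in *Ifnar1* KO (log2 fold change -1.02, SE 0.208, adjusted p = 0.0397, edgeR's quasi-likelihood test), and its groups did not overlap, as for 10.9% of all genes (5.42% lower and 5.44% higher). The call was near the threshold. It was lost without any of the *Tlr7* KO mice (adjusted p = 0.06 to 0.0924), without *Ifnar1* KO 3 (adjusted p = 0.0745) and with edgeR's robust fit (adjusted p = 0.0836). It held without *Ifnar1* KO 2, the mouse with the most *Jchain*, at a smaller size (-0.70, adjusted p = 0.035). The intervals for the other genes between the knockouts were -1.16 to -0.06 for *Mzb1*, -0.76 to 0.48 for *Irf4*, -0.84 to 0.57 for *Prdm1*, -0.21 to 1.51 for *Slamf7*, -0.13 to 0.36 for *Xbp1* and -0.43 to 0.01 for *Sdc1*, none of which passed after adjustment (adjusted p = 0.262 to 0.866).

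A ratio of 2 genes within a library does not depend on how libraries are scaled. There were 21, 36.3 and 23.4 *Jchain* counts per *Mzb1* count in WT 1 to 3. The *Tlr7* KO mice had 40.8, 32.6, 38.2, 36.4 and 34.1, and the *Ifnar1* KO mice 50, 45.7 and 52.1. The *Ifnar1* KO mice lay above all others, and only WT 2 of the WT mice reached into the *Tlr7* KO range. The log2 ratio was higher in *Ifnar1* KO than in WT by 0.91 (exact permutation p = 0.1, the smallest that 3 mice against 3 allow) and lower in *Tlr7* KO than in *Ifnar1* KO by a difference of -0.44 (exact permutation p = 0.0179, the smallest possible there). *Tlr7* KO exceeded WT by 0.48 (exact permutation p = 0.0536). After adjustment over the 6 ratio tests, the exact permutation p was 0.1 for each, so none passed.

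**Figure D4:**
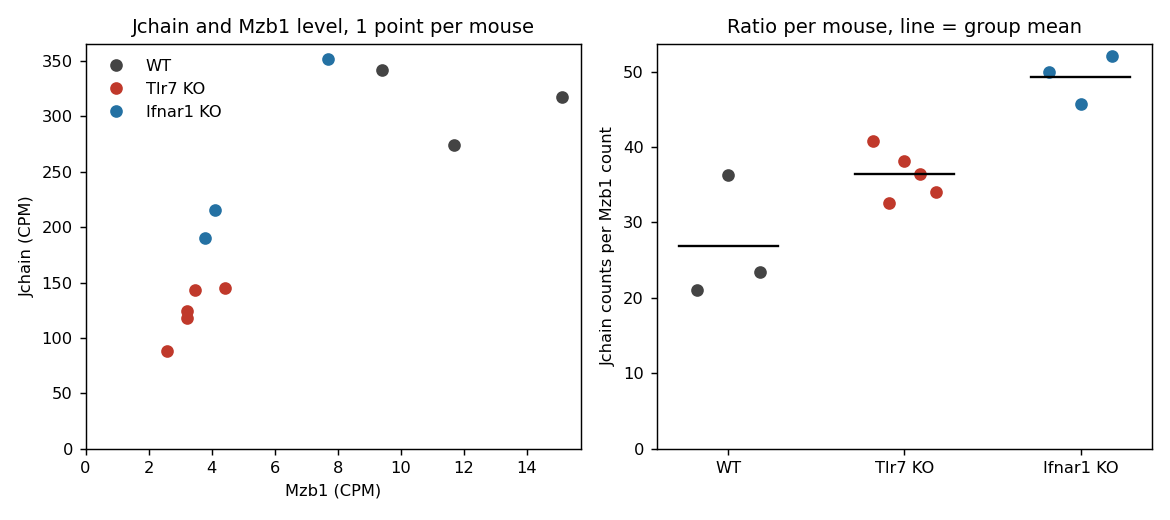
Left, *Jchain* against *Mzb1* in CPM with 1 point per mouse; right, *Jchain* counts per *Mzb1* count in each mouse with the group mean as a line. The ratio runs from 21 to 36.3 in WT, from 32.6 to 40.8 in *Tlr7* KO and from 45.7 to 52.1 in *Ifnar1* KO mice.

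*Ms4a1* (CD20) marks B cells that have not become plasma cells. Its counts were 693, 173 and 781 in WT, 40, 110, 9, 29 and 20 in *Tlr7* KO and 23, 41 and 0 in *Ifnar1* KO mice. There were 13.5, 46.3 and 12.8 *Jchain* counts per *Ms4a1* count in WT, between 30.3 and 344 in *Tlr7* KO mice, 237 and 227 in *Ifnar1* KO 1 and 2, and at least 1710 in *Ifnar1* KO 3 with its count of 0 set to a floor of 3. Glands of both knockouts thus held more *Jchain* per *Ms4a1* than WT 1 and WT 3, and the *Tlr7* KO group overlapped WT through WT 2 and *Tlr7* KO 2. With the floor, the log2 ratio exceeded WT by 2.24 in *Tlr7* KO and by 4.42 in *Ifnar1* KO (adjusted exact permutation p = 0.107 for each).

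The genes whose profile over the 11 mice lay nearest to each member divided the list. Nearness was the root mean square difference of centred log2(CPM + 1) values, over the 11503 genes whose mean level reached 1 CPM, and the points share their libraries. Adding 1 CPM shrinks the changes of genes at a few CPM or less, so near genes need not share a fold change. The nearest to *Jchain* were the antibody genes *Igkc* (0.105), *Igha* (0.222) and *Ighj4* (0.286), and among the members *Mzb1* was its closest, in 12th place (0.346). *Mzb1* had *Ccn2* (0.216), *Slmapos2* (0.241) and *Ighj4* (0.243) nearest, with *Pou2af1* in 14th place. *Pou2af1* had *St6gal1* (0.163), *H2-Eb2* (0.164) and *Izumo1r* (0.167) nearest. *Jchain* ranked 1375th from *Pou2af1* and 3313th from *Irf4*.

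For *Irf4* the nearest genes were *Gcnt1* (0.15), *Adgrg5* (0.179) and *Galnt6* (0.183), and *Slamf7* stood in 132nd place. *Slamf7* had *Plin2* (0.114), *Trp53* (0.117) and *Me2* (0.124), and *Prdm1* had *Plagl2* (0.124), *Ldb1* (0.125) and *Neil1* (0.126). In WT, *Tlr7* KO and *Ifnar1* KO, *Slamf7* averaged 2.15, 0.822 and 0.525 CPM, but *Trp53* 9.12, 5.42 and 4.36 CPM, a smaller relative fall. *Xbp1* was nearest to *Gid4* (0.0746), *Acadsb* (0.0814) and *Guk1* (0.0947), and *Sdc1* to *Larp4* (0.0513), *Nbas* (0.0689) and *Wee1* (0.0757). No member was among the 3 nearest genes of another member.

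The antibody genes were compared in the same way. *Igha* averaged 1140 ± 138 CPM in WT, 607 ± 129 in *Tlr7* KO and 1130 ± 376 in *Ifnar1* KO (SD, n = 3, 5 and 3), and *Igkc* 1180 ± 110, 433 ± 82.4 and 865 ± 284 CPM. Between the knockouts the log2 fold changes were -0.99 for *Igkc* (adjusted p = 0.0425) and -0.89 for *Igha* (adjusted p = 0.0816, edgeR), similar sizes on either side of the threshold. Among the 9 immunoglobulin constant and *Pigr* genes tested, the largest falls in *Tlr7* KO were in the IgG heavy chain genes *Ighg2c* (29.1 to 49.9 CPM in WT, 0.038 to 0.629 CPM in *Tlr7* KO and 4.76 to 24.4 CPM in *Ifnar1* KO mice, log2 fold change -7.91 in *Tlr7* KO, adjusted p = 3.38e-05) and *Ighg2b* (-5.10, adjusted p = 3.38e-05, edgeR). Both were also lower in *Tlr7* KO than in *Ifnar1* KO (-6.21, adjusted p = 0.00617, and -3.47, adjusted p = 0.0036, edgeR), with no overlap. *Ighg2c* had only 1 to 12 counts per *Tlr7* KO mouse, so the sizes of its falls are approximate. *Ighm*, the IgM heavy chain gene, averaged 285 ± 56.5 CPM in WT, 42.3 ± 15 in *Tlr7* KO and 38.7 ± 42.3 in *Ifnar1* KO. Its log2 fold changes against WT were -2.75 (adjusted p = 0.00064) and -2.92 (adjusted p = 0.0713, edgeR), and between the knockouts it differed by 0.13 (95% interval -1.42 to 1.69). Of these 9 genes, 7 were lower and 1 higher in *Tlr7* KO, beside 17.4% and 15.3% of all genes. In *Ifnar1* KO 2 were lower and 1 higher, beside 12.4% and 6.76% of all genes, with *Pigr* the higher gene in both (0.99 and 1.17). Without WT 1 or WT 3 none of the 9 passed in *Ifnar1* KO in edgeR, and without WT 2 4 were lower and 1 higher. Over all genes no more than 0.806% passed without WT 1 or WT 3, and 34.4% without WT 2. With all mice DESeq2 gave 4 lower and 1 higher in *Ifnar1* KO, and edgeR's robust fit 1 and 1. These 2 fits called 24.1% and 19% of all genes in either direction. Between the knockouts 3 of the 9 passed, *Ighg2c*, *Ighg2b* and *Igkc*, all lower in *Tlr7* KO, against 1.79% of all genes. DESeq2 called 5 of the 9 (4.14% of all genes) and the robust fit 2 (1.51% of all genes).

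A wider list of 20 genes of antibody-secreting cells moved in both directions. In *Tlr7* KO, 7 were lower and 6 higher, against 17.4% and 15.3% of all genes (median log2 fold change 0.16, all genes -0.04). These counts were 5 and 2 without WT 1, 8 and 9 without WT 2, and 6 and 2 without WT 3, with medians of 0.01, -0.06 and -0.22. Over all genes 20.9%, 48.9% and 20.2% passed in either direction in these 3 settings, against 32.8% with all mice. The largest falls among genes that reached a mean of 1 CPM in either group were in the homing receptor *Cxcr4* (-3.21, from 16.7 to 1.82 CPM, adjusted p = 3.38e-05), *Fcrl5* (-2.89, adjusted p = 0.0112, past this limit only through its WT mean of 1.1 CPM) and the lymphoid factor *Ikzf3* (-2.52, adjusted p = 0.0054, edgeR). *Fcrl5* had 0 to 6 counts per *Tlr7* KO mouse, so the size of its fall is approximate. The genes that rose were *Derl3*, *Txndc5*, *Edem1*, *Creb3l2*, *Eaf2* and *Bhlha15*, of which *Derl3*, *Txndc5* and *Edem1* serve protein folding or disposal in the endoplasmic reticulum. The most abundant was *Bhlha15* (Mist1), a factor of secretory cells that acinar cells also use (468 ± 52.6 CPM in WT and 657 ± 36.8 CPM in *Tlr7* KO, log2 fold change 0.49, adjusted p = 0.00838). *Tnfrsf17*, which encodes BCMA, a receptor restricted to late B lineage cells and named after its values were seen, was at 0.403 ± 0.0899 CPM in WT and 0.512 ± 0.204 CPM in *Tlr7* KO (95% interval -0.53 to 1.26, adjusted p = 0.507, edgeR). With only 11 to 13 counts per WT mouse and 5 to 18 per *Tlr7* KO mouse, neither a fall nor a rise of this gene can be told from no change. Under scaling by library size alone 9 genes of the list were lower and 0 higher in *Tlr7* KO in edgeR. With that scaling 31.5% of all genes passed in either direction, and the all-gene median was -0.54, against -0.33 for the list.

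In *Ifnar1* KO, 6 of the 20 genes were lower and 3 higher, against 12.4% and 6.76% of all genes. None of them passed in edgeR without WT 1 or without WT 3 (10 and 9 at an unadjusted p under 0.05), and without WT 2 7 were lower and 5 higher. Over all genes 0.0991%, 0.806% and 34.4% passed in these settings, in that order. *Cxcr4* fell by 3.41 on the log2 scale (adjusted p = 0.0216), *Ikzf3* by 3.48 (adjusted p = 0.0235, edgeR), and *Fcrl5*, with no more than 1 count in any *Ifnar1* KO mouse, was at least 9.74-fold lower than in WT when each of these mice was set to the floor of 3 counts. *Bhlha15* was at 753 ± 101 CPM (0.67, adjusted p = 0.0499). Between the knockouts 0 of the 20 genes passed in edgeR or in DESeq2, with 2 and 3 at an unadjusted p under 0.05. Only 1.79% and 4.14% of all genes passed in these 2 fits, so a count of 0 does not set this list apart.

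Most of the 22 genes of the endoplasmic reticulum stress response and of *Xbp1* targets were higher in *Tlr7* KO glands, and their median change was of like size in *Ifnar1* KO (0.53 and 0.57 on the log2 scale). In *Tlr7* KO 18 were higher and 0 lower, against 15.3% and 17.4% of all genes, with *Sec61b*, *Atf4*, *Ddit3* and *Canx* not passing, including the chaperone *Hspa5* (540 ± 21 CPM in WT and 777 ± 29.2 CPM in *Tlr7* KO, adjusted p = 0.00364), *Calr*, *Herpud1* and *Sdf2l1*. In *Ifnar1* KO 5 were higher, against 6.76% of all genes, led by *Ern1*, the kinase and nuclease that splices *Xbp1* messenger (1.06, adjusted p = 0.0235), *Dnajb9* (0.83, adjusted p = 0.0338) and *Herpud1* (0.82, adjusted p = 0.0229, edgeR). With DESeq2 12 were higher in *Ifnar1* KO, where it called 24.1% of all genes in either direction. Under scaling by library size alone none of the 22 passed in either knockout, with medians of 0.05 and 0.29 above all-gene medians of -0.54 and -0.31. With that scaling 31.5% and 9.61% of all genes passed in either direction. Leaving out WT 1 or WT 3 left 13 of the 22 in *Tlr7* KO and 0 in *Ifnar1* KO, and leaving out WT 2 gave 20 and 12. Over all genes, 20.9% and 20.2% passed in *Tlr7* KO without WT 1 and WT 3, and no more than 0.806% in *Ifnar1* KO. Without WT 2 these shares were 48.9% and 34.4%. Between the knockouts *Dnajb9* was lower in *Tlr7* KO (-0.37, adjusted p = 0.0275, edgeR).

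**Figure D5:**
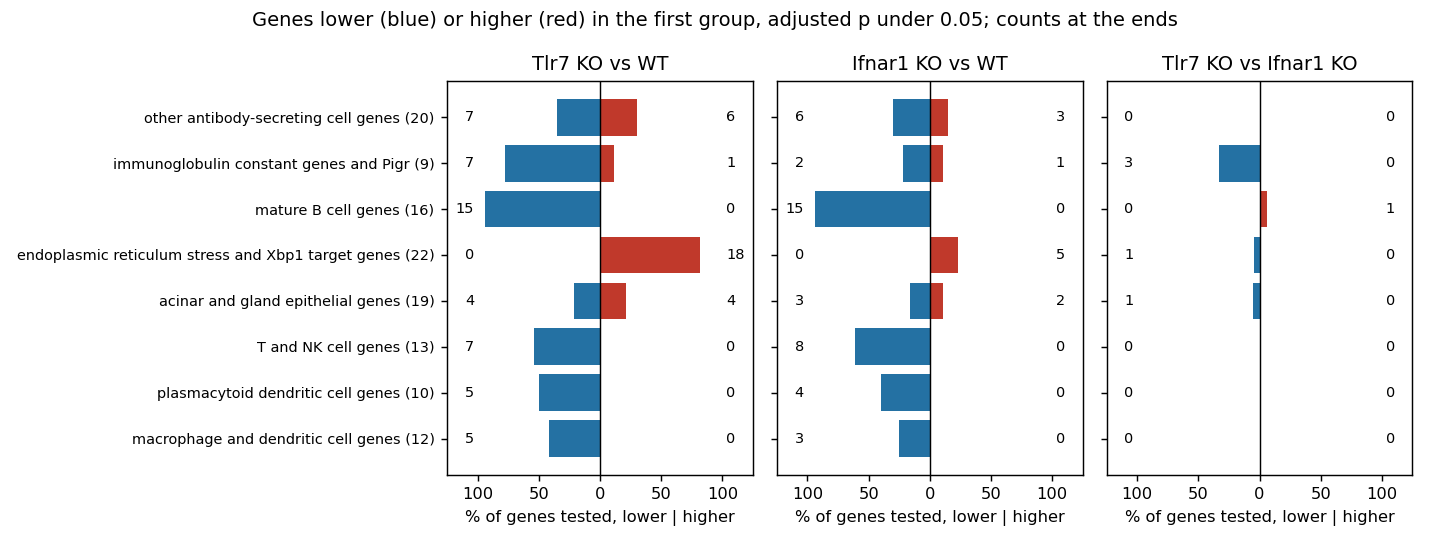
Share of the genes tested in each list that were lower (left, blue) or higher (right, red) in the first-named group at an adjusted p under 0.05, for the 3 comparisons; list sizes stand in brackets and the counts at the ends of each row. The 20 other antibody-secreting cell genes divide into 7 lower and 6 higher in *Tlr7* KO, the mature B cell genes are lower (15 of 16 in each knockout) and the endoplasmic reticulum genes higher (18 of 22 and 5 of 22).

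Of the markers of lymphoid and myeloid cells that can carry these transcripts, part of each list was also lower in the knockouts. The epithelial markers went both ways. Of all genes, 17.4% were lower in *Tlr7* KO and 12.4% in *Ifnar1* KO, the background for the counts of each list. Without WT 1, 20.9% and 0.0991% of all genes passed in either direction in *Tlr7* KO and *Ifnar1* KO. These shares were 48.9% and 34.4% without WT 2, and 20.2% and 0.806% without WT 3. The 16 mature B cell genes summed to 180 to 485 CPM in WT, 64 to 136 CPM in *Tlr7* KO and 28.3 to 63.2 CPM in *Ifnar1* KO mice, and 15 of 16 fell in each knockout. In *Tlr7* KO 14 of the 16 passed without WT 1 or without WT 3. In *Ifnar1* KO only 1 and 2 of the 16 passed without WT 1 and without WT 3, and 16 without WT 2. *Bcl6*, a repressor that opposes *Prdm1* in germinal centre B cells and is also made outside the B lineage, was the exception in *Tlr7* KO (0.41, adjusted p = 0.122) and fell in *Ifnar1* KO (-2.40, adjusted p = 0.00789, edgeR). The 14 T and NK cell genes summed to 18.7 to 56.9, 5.73 to 24.2 and 1.34 to 11.4 CPM in WT, *Tlr7* KO and *Ifnar1* KO, with 7 and 8 of the 13 tested lower in the 2 knockouts, 2 and 0 without WT 1 or without WT 3, and 10 and 12 without WT 2.

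The 12 macrophage and dendritic cell genes summed to 183 to 333, 162 to 186 and 55.6 to 150 CPM in the same order, with 5 and 3 lower of the 12 (1 and 0 without WT 1, 8 and 9 without WT 2, 2 and 0 without WT 3). The 10 plasmacytoid dendritic cell genes, from a cell that also makes *Jchain*, summed to 24.2 to 45.5, 18.4 to 24.3 and 16.6 to 27.6 CPM, with 5 and 4 lower of the 10 (3 and 0 without WT 1, 7 and 6 without WT 2, 3 and 1 without WT 3). The 19 acinar and gland epithelial genes ranged from 2110 to 5550, from 5450 to 5880 and from 5510 to 7810 CPM. In *Tlr7* KO 4 were lower and 4 higher, shares close to those of all genes. These counts were 3 and 2 without WT 1, 5 and 5 without WT 2, 1 and 2 without WT 3, and 6 and 1 with library size only. In the last setting 31.5% of all genes passed in either direction, around an all-gene median of -0.54. In *Ifnar1* KO 3 were lower and 2 higher, and 4 and 4 without WT 2. None passed there in edgeR without WT 1 or WT 3. With DESeq2 the counts lower in *Ifnar1* KO were 12 for the T and NK cell genes, 5 for the macrophage and dendritic cell genes and 6 for the plasmacytoid genes. Over all genes DESeq2 called 24.1% in either direction there, and edgeR 19.2%. The sums of WT 3 (5550 CPM) and of *Ifnar1* KO 2 (7810 CPM) held the *Bpifa2* named above, and in WT 3 also 1510 CPM of *Car6*. Without *Bpifa2* and *Car6*, a choice made after the values were seen, the sums were 1900 to 3010 CPM in WT, 5080 to 5640 CPM in *Tlr7* KO and 5310 to 5940 CPM in *Ifnar1* KO mice. *Lpo* alone made up means of 1590, 4520 and 4760 CPM of these sums, whereas over the 19 acinar markers the median change from WT was 0.03 (*Tlr7* KO) and 0.13 (*Ifnar1* KO) on the log2 scale. *Klk1*, of the plasmacytoid list, was likewise highest in WT 3 (6.62 CPM) and *Ifnar1* KO 2 (8.48 CPM). No gene of these lists was at 0 in all mice of a group. The part of these cells in the values of *Irf4*, *Prdm1*, *Slamf7*, *Jchain*, *Xbp1* and *Sdc1* was not tested.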

How the data were processed

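RNA from lacrimal glands of 11 male NOD mice was sequenced on an Illumina HiSeq instrument, with 1 gland library per mouse. The main table deposited by the authors holds estimated counts for 19058 genes, made with salmon at transcript level and collapsed per gene by tximport, and its values are whole numbers. This table is named as normalized, but its size factors ran from 0.742 to 1.42 as those of unscaled libraries do. A second table deposited by the authors holds counts for 39017 genes, with 12233586 to 16621073 per mouse, and 1 column of it, which has no sample, was not used. The submitters' processing notes name HISAT2 2.1.0 and mm10. Reads that fit several similar transcripts are divided by estimation, so values of antibody genes are uncertain.

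Genes with a summed WT count of at least 30 were fitted in edgeR 4.0.16 (R 4.3.3, limma 3.58.1) with TMM scaling and the default quasi-likelihood fit, using only the mice of the 2 groups compared, with Benjamini-Hochberg adjustment over all 13937 genes tested and a threshold of 0.05. The intervals of fold changes are 95% intervals with the fit's degrees of freedom. Ratios of counts had 0.5 added to each gene and were compared by two-sided exact permutation tests. The fits were tested on simulated data. Each library is a separate mouse.

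Alternatives were DESeq2 1.42.0, RLE size factors, library size only, filterByExpr, no gene filter, 1 joint fit of the 11 mice, leaving out each mouse, a replicate block, the second table and 2 added counts in the ratios. edgeR's robust fit, the floor of 3 counts for *Ms4a1* and the other settings for gene lists were added after the data were seen. Results of both fits were known when the default, the literal design, was kept. The members and lists were chosen with earlier results of these data known. The rule for named genes took the 8 members, *Ms4a1*, *Tlr7*, *Ifnar1*, the 3 nearest genes of each member and, from each list, the most abundant gene and the 3 genes past the threshold with the largest changes, where either group's mean reached 1 CPM. Not all list genes it took are named, and *Tnfrsf17*, *Eaf2*, *Creb3l2*, *Txndc5*, *Edem1*, *Derl3*, *Cd38*, *Car6*, *Sec61b*, *Atf4*, *Ddit3* and *Canx* were named after their values were seen. Exon lengths are from GENCODE M21 on GRCm38, with the exons of all basic transcripts of a gene merged. Levels per kilobase can thus be too low for genes with several transcripts, such as *Slamf7* with 5 and *Prdm1* with 3.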

Additional observations from a re-analysis of the deposited data

How the results depend on the processing

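Of 416 alternatives for the fold changes of single members, 14 reversed the sign, and the cause was not tested. None of these reversals was of a value that had passed. *Xbp1* turned to -0.26 in *Tlr7* KO and -0.18 in *Ifnar1* KO with library size only, to -0.04 without WT 1 and -0.07 without *Ifnar1* KO 3 in *Ifnar1* KO (up to 0.23, without WT 2), and to -0.07 between the knockouts with library size only. Between the knockouts *Pou2af1* turned to -0.11 with library size only and to between -0.12 and -0.01 without *Tlr7* KO 1 or 2 or *Ifnar1* KO 1 or 3 (-0.02, -0.09, -0.01 and -0.12), with 0.41 as the highest, without *Ifnar1* KO 2. *Irf4* turned to 0.05 with the replicate block and 0.33 without *Ifnar1* KO 2 (lowest -0.33, without *Ifnar1* KO 3), and *Prdm1* to 0.04 without *Tlr7* KO 3 and 0.12 without *Ifnar1* KO 1 (with a mouse left out the lowest was -0.29, without *Tlr7* KO 2, and over all settings -0.34, with library size only).

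The count of members that passed ran from 4 to 8 with each mouse left out for *Tlr7* KO against WT, from 0 to 5 for *Ifnar1* KO and from 0 to 1 between the knockouts. For the 20 other antibody-secreting cell genes these ranges were 7 to 17, 0 to 12 and 0 to 1. The count of 13 fell to 7 and 8 without WT 1 and WT 3 and to 8 without *Tlr7* KO 1, 3 or 4. Over all genes the share that passed fell from 32.8% to 20.9%, 20.2%, 23.9%, 23.6% and 25.4% in these settings. The count of 9 fell to 0 when WT 1 or 3, or *Ifnar1* KO 1 or 3, was left out (9 to 12 at an unadjusted p under 0.05 in edgeR). No more than 0.806% of all genes passed there, against 19.2% with all mice. *Cd38* was the gene called between the knockouts without *Ifnar1* KO 2. edgeR's robust fit, added after the data were seen, left 0 members between the knockouts (2 at an unadjusted p under 0.05), while DESeq2 kept *Jchain*.

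The labels give no shared batch for a replicate number. Same-numbered mice correlated at -0.44 to -0.07 between WT and each knockout and at 0.04, 0.38 and 0.3 between the knockouts, where not every mouse correlated best with its own number, so the numbers were not taken as pairs. With the replicate block over mice 1 to 3, 0 members passed for *Tlr7* KO (4 without the block) and 0 for *Ifnar1* KO (4 without it), each with 4 at an unadjusted p under 0.05 in edgeR, as against 1 between the knockouts (0 without it, 1 unadjusted). Of the other antibody-secreting cell genes 1, 0 and 1 passed with the block, and 6, 9 and 0 without it. Over all genes the block moved the calls from 1789 to 17, from 2677 to 0 and, between the knockouts, from 16 to 533. The ratios of *Jchain* to *Mzb1* and to *Ms4a1* kept their sign in every setting, with adjusted exact permutation p values of 0.0804 to 0.286. *Prdm1* and *Slamf7* had the fewest counts, 10 to 84 per mouse.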
